A study of Mus musculus with 4 samples.

Results

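The blood progenitor transcription factors Gata2 and Tal1 were compared directly with each other, by setting the sequenced fragments pulled down with one antibody against those pulled down with the other. The comparison used 2 of the 4 libraries of the series, with 1 library per antibody, and the libraries for the cofactor Ldb1 and for control IgG served as readouts that took no part in choosing the sites. All 4 libraries came from mouse bone marrow progenitors, untreated beyond the magnetic bead depletion of cells that carry lineage markers. The labels name no strain, age or number of animals. The depleted fraction is a mixture of progenitor types, so a site may belong to a few of its cells. Chromatin was crosslinked with formaldehyde, sonicated and immunoprecipitated with anti-Gata2, anti-Scl/Tal1 (Scl is an older name of Tal1), anti-Ldb1 or IgG.

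Gata2 is a zinc finger protein that binds GATA sequences and is needed for the formation and upkeep of haematopoietic stem cells. Tal1 is a basic helix-loop-helix protein that binds E-boxes together with an E protein partner. In blood cells both can be joined into one complex through the adaptor Lmo2 and Ldb1. Ldb1 has no DNA-binding domain of its own, and it takes part in contacts between distant enhancers and promoters. Each factor can also bind DNA outside that complex.

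A tag is the position of one aligned fragment end. Copies at the same position and strand were counted as 1 tag on chromosomes 1 to 19, which left 5785973 Gata2 and 8701045 Tal1 tags. Tal1 tags were thinned at random to the Gata2 number, so that the genome-wide ratio of the 2 libraries is 1 and a departure from 1 is a local difference. The genome was divided into bins of 500 bp, with a mean of 1.22 tags per bin in each of the 2 libraries, 0.815 for Ldb1 (3866477 tags) and 0.717 for IgG (3401045 tags). Levels below are given as fold over these means. Positions are in the mouse build mm8, and no gene names are attached to them, since an annotation of that build was not used here. With 1 library per antibody no difference has a replicate check. The 95% exact intervals (Clopper-Pearson for shares and ratios, Poisson for levels) cover counting error between these libraries only. For a share or tag number of 0, the limit given in the text is that of 3 counts, which is lower than the upper bound of these intervals. How well each antibody worked and how much of each factor was bound cannot be told apart.

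Tal1 and Gata2 tags were concentrated at partly different places. Bins with at least 20 tags of both libraries together numbered 20302, or 0.428% of the 4746555 bins in covered parts of the genome. They held 8.04% of the Tal1 tags and 4.58% of the Gata2 tags. Tal1 had more tags in 13211 of them (65.1%), Gata2 in 6504, and 587 were even. The median ratio of Gata2 to Tal1, with 1 tag added to each count, was 0.667. A bin was called leaning when this ratio was at least 4-fold in one direction. By this rule 4637 bins leaned to Tal1, which is 22.8% of the bins with enough tags, and 645 leaned to Gata2, or 3.18%. Tal1-leaning bins were 7.19 times as many. In a further 7082 bins (34.9%) both libraries had at least 10 tags and the ratio lay between 0.5 and 2. These are called high in both. The remaining 7938 bins lay between these classes.

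**Figure D1:**
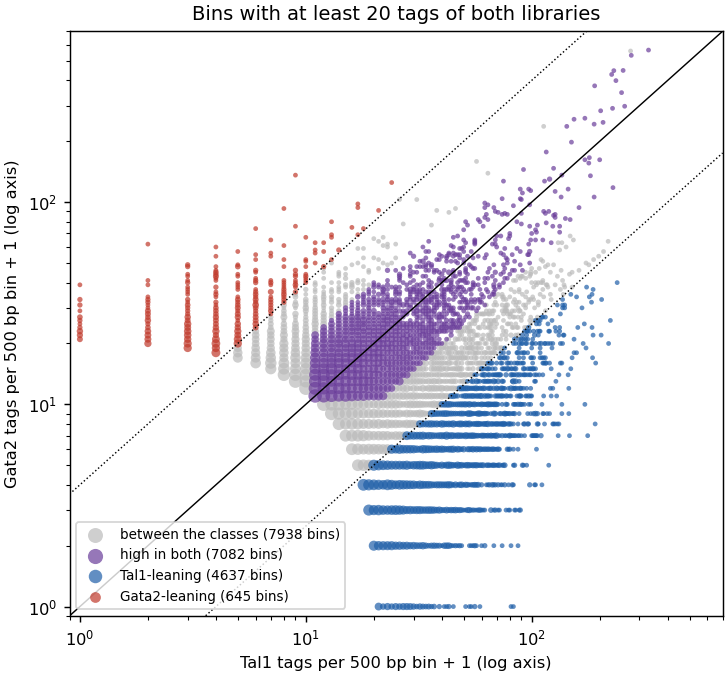
Tags of Gata2 (y axis) against Tal1 (x axis) in the 20302 bins of 500 bp with at least 20 tags of both libraries, with 1 added to each count and both axes on a log scale. Points are grouped bins of equal counts and grow with their number, the solid line marks equal counts, and the dotted lines mark 4-fold differences. The 4637 Tal1-leaning bins far outnumber the 645 Gata2-leaning bins, and the 7082 bins high in both follow the line of equal counts.

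Seen from each library alone, 26694 bins had at least 10 Tal1 tags and 18817 had at least 10 Gata2 tags. The 8858 bins that passed in both were 33.2% of the Tal1 bins and 47.1% of the Gata2 bins. Of all bins in covered parts of the genome, 0.562% had at least 10 Tal1 tags and 0.396% at least 10 Gata2 tags. The overlap was thus far above the share over all bins, although most bins with 10 tags of one factor had fewer of the other. A cut at 10 tags also parts bins of nearly equal counts, such as 161 bins with 9 Gata2 and 11 Tal1 tags.

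At Tal1-leaning bins the Tal1 level was 32.3-fold over the genome mean (32.1 to 32.4), with a median of 31 tags and a highest count of 238. Gata2 stood at 4.01-fold (3.95 to 4.06), with a median of 4 tags. Gata2 was therefore low there but not at the genome mean, and 131 of the 4637 bins had no Gata2 tag. At Gata2-leaning bins the Gata2 level was 22.99-fold (22.7 to 23.3), with a median of 23 tags and a highest count of 135. Tal1 stood at 2.95-fold (2.83 to 3.07), with a median of 3 tags and no tag in 29 of 645 bins. These levels chose the classes, so they describe the bins and support nothing further. Just inside the threshold, with ratios from 4 to 4.5, 571 bins on the Tal1 side had a median of 27 Tal1 and 6 Gata2 tags, and 100 bins on the Gata2 side had 23 Gata2 and 5 Tal1 tags. Just outside, with ratios from 3.5 to 4, the medians were 24 Tal1 and 6 Gata2 tags (693 bins) and 20 Gata2 and 5 Tal1 tags (132 bins).

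Bins chosen for a large ratio are also chosen for low counts of the weaker library, so the ratio was measured again on tags that had not chosen them. The 2915072 Tal1 tags that the thinning had set aside gave 4.01-fold Tal1 (3.82 to 4.22) at the Gata2-leaning bins, in place of 2.95-fold. At Tal1-leaning bins the tags set aside gave 30.9-fold Tal1 (30.7 to 31.1). When bins were chosen on a random 50% of the tags and measured on the rest, an alternative added after the data were seen, Gata2 exceeded Tal1 3.96 times (3.77 to 4.15) in 815 Gata2-leaning bins, against 10.1 times in the tags that had chosen the same bins. The 645 bins chosen and measured on all tags gave 7.80 times. For 4550 Tal1-leaning bins Tal1 exceeded Gata2 6.20 times (6.08 to 6.31), against 9.49 times in the tags that had chosen them and 8.06 times in the 4637 bins of all tags. The side held in 90.1% of the former bins and 97.2% of the latter.

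The strongest Gata2-leaning sites were 500 or 1000 bp long, with few Ldb1 and IgG tags at most of them. The first lay at chr3:96665501-96666000, with 135 Gata2, 8 Tal1, 7 Ldb1 and 0 IgG tags, a ratio of 15.1 (interval of the tag ratio 8.32 to 39.9). Up to 3 tags are allowed by a count of 0. At chr8:73602501-73603000 there were 92 Gata2, 7 Tal1, 3 Ldb1 and 0 IgG tags, a ratio of 11.6 (6.13 to 33.6). Gata2 was far ahead in both, although Tal1 (6.56-fold and 5.74-fold over its mean) and Ldb1 (8.59-fold and 3.68-fold) were above their genome means. Regions of 1000 bp at chr1:145768501-145769500 and chr2:118942001-118943000 had 105 Gata2 against 13 Tal1 tags and 119 against 19. Ldb1 had 3 and 5 tags there and IgG 5 and 1, so Ldb1 was not above IgG at the site on chromosome 1. Tal1 was partly present at the remaining pair, at 18.9-fold and 13.1-fold over its mean. The bin at chr10:127907501-127908000 had 124 Gata2, 23 Tal1, 6 Ldb1 and 2 IgG tags, and the one at chr11:78352501-78353000 had 97, 16, 16 and 0. Ldb1 was at 19.6-fold over its mean at the latter. Their ratios were 5.21 (3.44 to 8.82) and 5.76 (3.55 to 11.03). The largest Gata2-leaning region with more IgG, at chr10:120671501-120672000, was weak, with 28 Gata2, 6 Tal1, 2 Ldb1 and 5 IgG tags.

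The strongest Tal1-leaning sites differed from these in that Ldb1 was high at every one of the 6. The region with the largest excess, chr1:36864001-36865500, held 419 Tal1, 54 Gata2, 178 Ldb1 and 5 IgG tags, so Tal1 was 7.64 times Gata2 (5.83 to 10.5). Ldb1 stood at 72.8-fold over its mean. At chr7:80081501-80083000 the counts were 347 Tal1, 54 Gata2, 208 Ldb1 and 3 IgG, with Tal1 6.33 times Gata2 (4.81 to 8.73). At these sites Gata2 was itself 14.8-fold over its mean, so the lean there is one of degree. Gata2 was nearer its genome mean at the other 4. At chr5:135203501-135206500 there were 300 Tal1, 18 Gata2, 146 Ldb1 tags and 1 IgG tag, with Gata2 at 2.46-fold over its mean and Tal1 15.8 times Gata2 (10.4 to 28.5). At chr5:23432501-23434500 Tal1 had 310, Gata2 29, Ldb1 158 tags and IgG 1. At chr17:12048001-12050000 the corresponding counts were 291, 16, 187 and 1, and Tal1 was 17.2 times Gata2 (11.01 to 32.2). The largest of the 6 ratios was at chr16:17551501-17552500, with 275 Tal1, 14 Gata2, 149 Ldb1 and 2 IgG tags and Tal1 18.4 times Gata2 (11.5 to 36.4). The largest Tal1-leaning region with more IgG, at chr11:104353001-104354500, had 44 Tal1, 10 Gata2, 10 Ldb1 and 7 IgG tags.

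Regions high in both were led by long stretches in which the Ldb1 level was below the levels of both factors. The first, chr1:24565501-24570500, was 5000 bp long and had 2055 Gata2, 1491 Tal1, 340 Ldb1 and 2 IgG tags. Next came chr2:22440001-22442500 with 640, 523, 102 and 4 tags in the same order, and chr4:79474001-79476500 with 439, 390, 74 and 3. With tags without a mismatch alone, the ratio of Gata2 to Tal1 went from 1.13 to 2.41 on chromosome 4, outside the limits of the class, and from 1.22 to 1.77 on chromosome 2. In all 3 the Gata2 and Tal1 levels (64.0-fold to 169-fold) were above the Ldb1 level (18.2-fold to 41.7-fold). That Ldb1 level was still above the mean of all bins high in both, 11.7-fold. The Gata2, Tal1 and Ldb1 files list no mitochondrial tags and the IgG file lists 935. Whether these stretches hold sequence shared with the mitochondrial genome was not tested. Long regions at chr19:5839001-5846000 and chr8:73627501-73632500 had 518 Gata2 and 322 Tal1 tags, and 290 and 246, with 31 and 10 IgG tags. The strand with fewer Gata2 and Tal1 tags had a share of 46.9% and 47.8% at these regions. At the 3 regions on chromosomes 1, 2 and 4 that share was only 36.3%, 38.0% and 36.3%, and the cause was not tested. A stretch of 51000 bp at chr11:3029001-3080000, with 3169 Gata2 and 3340 Tal1 tags, also held 2414 Ldb1 and 1740 IgG tags. Scaled to equal totals IgG nearly equalled the factors there (2960 tags).

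Of the 6 leading regions high in both of at most 1500 bp, a limit chosen after these values were seen, 5 had more than 100 Ldb1 tags. They do not stand for the class, in which 64.0% of the bins with under 4 IgG tags had 2 to 9 Ldb1 tags and 4.37% had 20 or more. The first was chr1:182687001-182688000, with 198 Gata2, 214 Tal1, 243 Ldb1 and 2 IgG tags. The bin at chr8:87591501-87592000 had 161 Gata2, 171 Tal1, 229 Ldb1 and 3 IgG tags, with Ldb1 at 281-fold over its mean. At chr8:125605501-125607000 the tags numbered 183, 288, 325 and 5 in the same order, at chr17:29586501-29587500 they numbered 182, 279, 147 and 4, and at chr7:15453001-15454500 they numbered 125, 179, 122 and 3. The exception was chr13:85599501-85601000, where 202 Gata2 and 173 Tal1 tags met only 21 Ldb1 tags (8.59-fold) and 3 IgG tags. The ratio of Gata2 to Tal1 there was 1.17, and 2.30 with tags without a mismatch, when the region was no longer high in both. With repeated tags kept, chr8:125605501-125607000 and chr17:29586501-29587500 left the class as well, with ratios of 0.463 and 0.478.

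**Figure D2:**
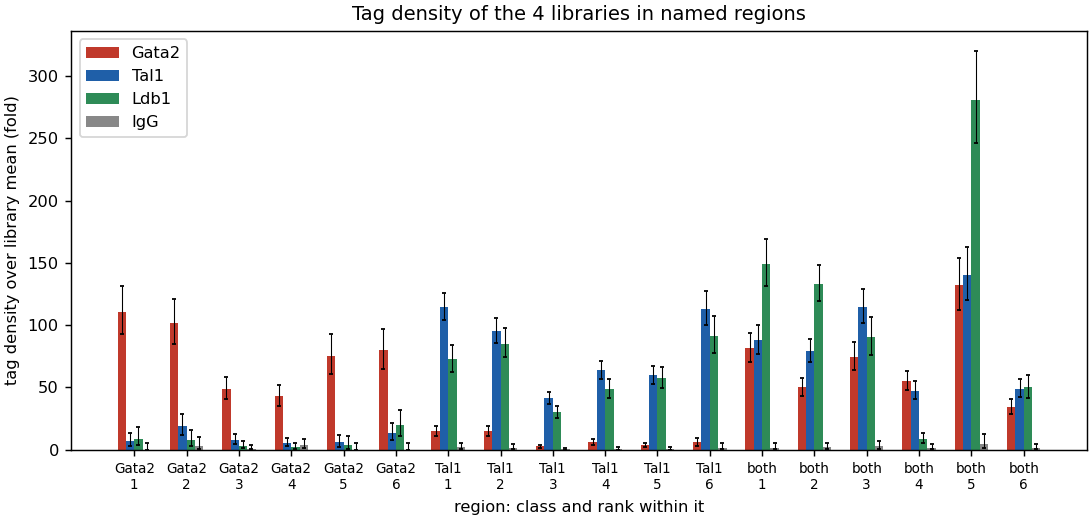
Tag density over the library mean (y axis, fold) for Gata2, Tal1, Ldb1 and IgG in the 6 named regions of each leaning class with few IgG tags and the 6 regions high in both of at most 1500 bp, by class and rank (x axis). Bars show 1 library each, with 95% Poisson intervals of the tag counts. Ldb1 is high in all 6 Tal1-leaning regions and in 5 of the 6 regions high in both, and low beside Gata2 in the Gata2-leaning regions.

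Ldb1, which was not used to choose the bins, separated the classes. Its level was 20.002-fold over the mean in Tal1-leaning bins (19.9 to 20.1), 11.7-fold in bins high in both (11.6 to 11.8) and 2.85-fold in Gata2-leaning bins (2.71 to 3.001). Per bin, Tal1-leaning bins thus had 7.01 times the Ldb1 tags of Gata2-leaning bins (6.66 to 7.38), and bins high in both had 4.11 times (3.90 to 4.33). At least 10 Ldb1 tags were found in 51.9% of Tal1-leaning bins, 32.6% of bins high in both and 1.86% of Gata2-leaning bins, beside 32.4% of all bins with enough tags. The Ldb1 and Gata2 tags are 25 bp long and the Tal1 tags 36 bp, and the part of tag length in these levels was not tested.

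IgG did not order the classes as Ldb1 did. It stood at 1.08-fold in Tal1-leaning bins (1.05 to 1.12), 1.44-fold in Gata2-leaning bins (1.34 to 1.56) and 3.15-fold in bins high in both (3.10 to 3.19). The last value came largely from 521 bins with 4 or more IgG tags, which held 59.7% of the IgG tags of the class. Without such bins IgG was at 1.01-fold, 1.21-fold and 1.37-fold in the same order, and Ldb1 was at 20.03-fold in Tal1-leaning, 2.75-fold in Gata2-leaning and 10.2-fold in bins high in both. The share of bins high in both rose with IgG, from 30.1% of bins without an IgG tag to 87.4% of the 261 bins with 10 or more, while the Tal1-leaning share fell from 27.8% to 0 of 261 bins, which allows up to 1.15%. The Gata2-leaning share lay between 2.995% and 3.27% up to 9 IgG tags and was 0.766% (0.0929 to 2.74) with 10 or more.

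Sorting the bins by Ldb1 tags showed the same division from the other side. Of 1838 bins with 0 or 1 Ldb1 tag, 16.5% leaned to Gata2 (14.8 to 18.3) and 10.2% to Tal1 (8.83 to 11.6). With 5 to 9 Ldb1 tags, 1.15% leaned to Gata2 (0.909 to 1.43) and 18.7% to Tal1. With 20 to 39 Ldb1 tags a single bin of 1538 leaned to Gata2, and 50.5% leaned to Tal1 (47.9 to 53.0). Of the 663 bins with 40 or more Ldb1 tags none leaned to Gata2, which allows up to 0.452%, and 59.6% leaned to Tal1 (55.7 to 63.3). Bins high in both were most frequent in the middle, with 41.7% of the bins with 10 to 19 Ldb1 tags (40.2 to 43.2) and 17.5% of those with 40 or more (14.7 to 20.6).

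**Figure D3:**
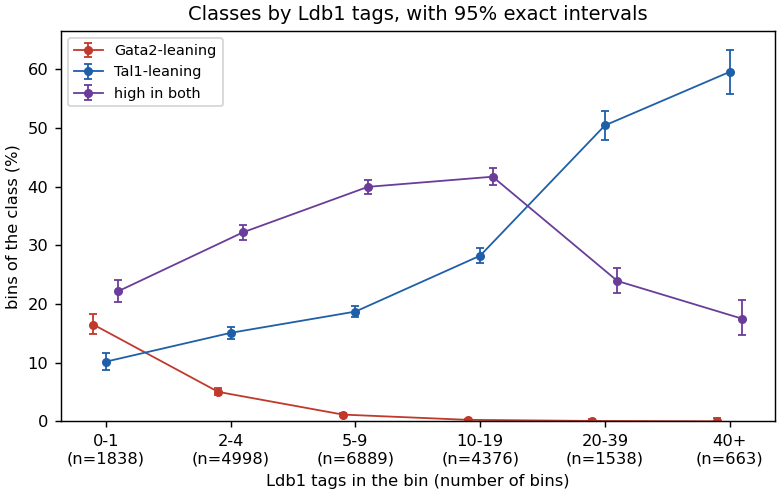
Share of each class (y axis, %) among bins with at least 20 Gata2 and Tal1 tags together, by the number of Ldb1 tags in the bin (x axis, with the number of bins). Points are shares and bars are 95% exact intervals. The Gata2-leaning share falls from 16.5% to 0, the Tal1-leaning share rises from 10.2% to 59.6%, and bins high in both peak at 41.7%.

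Strong bins have more tags of every factor, so the shares were also read at matched totals. Among bins with 20 to 29 Gata2 and Tal1 tags together, the Gata2-leaning share was 6.85% (6.18 to 7.56) with under 5 Ldb1 tags and 0.547% (0.377 to 0.768) with 5 to 19. With 20 or more Ldb1 tags it was 0.735% (0.0186 to 4.03), or 1 of 136 bins. The Tal1-leaning share was 12.2% with under 5 Ldb1 tags and 45.6% (37.03 to 54.3) with 20 or more. Among bins with totals of 50 to 99, the Gata2-leaning share was 26.1% (19.1 to 34.1) of 142 bins with under 5 Ldb1 tags and 0 of 1047 with 20 or more, which allows up to 0.287%. The Tal1-leaning share went from 21.1% (14.7 to 28.8) to 59.3% (56.3 to 62.3). Within these totals too, the Gata2-leaning share was highest with under 5 Ldb1 tags and the Tal1-leaning share with 20 or more. For totals of 20 to 29, no further fall of the Gata2-leaning share was seen beyond 5 to 19 Ldb1 tags.

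Ldb1 tag numbers rose with Tal1 at every level of Gata2, and far less with Gata2 at a given level of Tal1. In bins with 20 to 39 Gata2 tags, mean Ldb1 was 1.67 tags with 0 to 2 Tal1 tags (1.48 to 1.88), 7.93 with 10 to 19 (7.74 to 8.13) and 38.4 with 40 or more (37.8 to 39.002). In bins with 20 to 39 Tal1 tags, mean Ldb1 was 8.82 tags with 0 to 2 Gata2 tags (8.63 to 9.02), 10.9 with 10 to 19 (10.7 to 11.1) and 13.1 with 20 to 39 (12.8 to 13.4). Bins with 0 to 2 tags of each factor had a mean of 0.688 Ldb1 tags. The 170 bins with 20 to 39 Gata2 and at most 2 Tal1 tags were 2.05-fold over the Ldb1 genome mean, while the 880 bins with these numbers exchanged were 10.8-fold over it. The group of 40 or more Tal1 tags has no upper limit, so Tal1 was not held level in it. Tal1 reached 88 tags in bins with 0 to 2 Gata2 tags and 222 in a bin with 25. The part of Tal1 in the rise within this group was not tested. With 40 or more Tal1 tags, mean Ldb1 was 19.6 tags at 0 to 2 Gata2 tags and 38.4 at 20 to 39. Leaving out bins with 4 or more IgG tags gave 38.7 for the latter. Bins with 40 or more tags of both had 64.6 Ldb1 tags on average, but also 19.6 IgG tags, and 49.5 Ldb1 tags when those rich in IgG were left out.

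**Figure D4:**
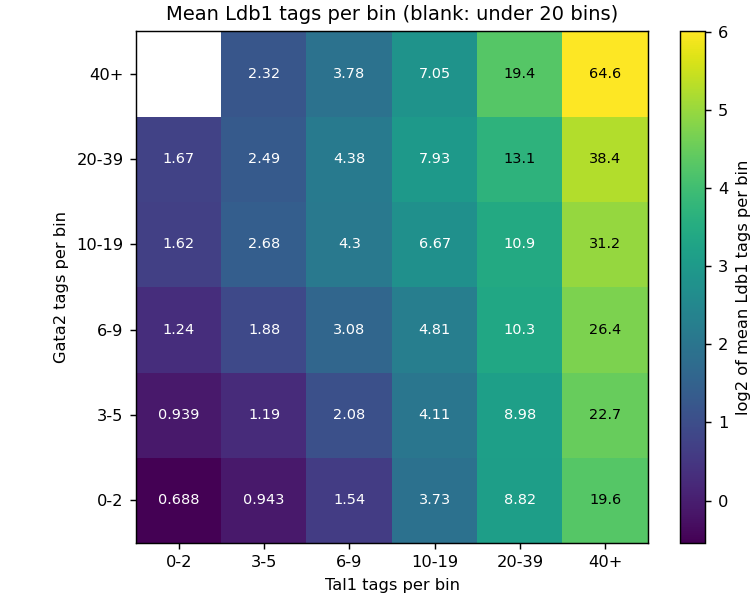
Mean Ldb1 tags per bin of 500 bp (number and colour, on a log2 colour scale) for bins grouped by Tal1 tags (x axis) and Gata2 tags (y axis), with groups of under 20 bins left blank. Along the row of 20 to 39 Gata2 tags the mean runs from 1.67 to 38.4, and along the column of 20 to 39 Tal1 tags from 8.82 to 13.1 over the rows up to 20 to 39 Gata2 tags.

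Bins chosen by Ldb1 alone, with at least 10 Ldb1 and under 4 IgG tags, avoid choosing on either factor. There were 7369 such bins, with a median of 24 Tal1 and 9 Gata2 tags. Tal1 was 26.6-fold and Gata2 9.97-fold over its mean. Tal1 exceeded Gata2 in 79.4% of them, 32.1% leaned to Tal1 (31.1 to 33.2), 26.8% were high in both (25.8 to 27.8) and 10 bins (0.136%) leaned to Gata2. At 40 or more Ldb1 tags (580 bins) the medians were 81.5 Tal1 and 14 Gata2 tags, 67.8% leaned to Tal1 (63.8 to 71.5) and 8.10% were high in both (6.01 to 10.6). Gata2 rose along with Ldb1, and Tal1 rose more.

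Across these 7369 bins the log2 tag numbers of Gata2 and Tal1 were only weakly related, with Pearson's r of 0.205 and Spearman's rho of 0.132, while Ldb1 and Tal1 gave r of 0.665 and Ldb1 and Gata2 0.201. Random subsets of 50% of the tags of one library gave r of 0.855 with each other for Tal1 and 0.697 for Gata2, and a Gata2 subset with a Tal1 subset 0.194. At 20 or more Ldb1 tags the r of Gata2 and Tal1 was 0.398, and at 40 or more it was 0.570. It thus depends on the choice of bins by Ldb1, which itself rises with both factors, and does not describe all bins. These are descriptions across bins, which share the libraries and are no independent replicates.

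Tags in all classes were gathered in narrow peaks with the strand order of immunoprecipitated fragments, forward tags upstream of reverse tags. Among the 3966 Tal1-leaning regions, obtained by joining neighbouring bins, the forward median lay upstream in 98.0%, by a median of 110 bp. For Gata2 tags in Gata2-leaning regions this was so in 96.0% of the 621 with enough tags, by 99 bp. The summit of a region, its point of most Gata2 and Tal1 tags together, was placed with these same tags. Each strand was first moved 55 bp inwards, which favours this strand order and a narrow peak. The order is therefore no separate support for the form of a peak. In regions high in both the share was 84.2% for Gata2 and 83.8% for Tal1. Of the 627 Gata2-leaning regions 97.1% were a single bin, as were 84.6% of Tal1-leaning and 85.5% of 5875 regions high in both.

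Within 400 bp around the joint summit, Ldb1 density in Tal1-leaning regions was 15.9 times that of flanks 3 to 5 kb away (15.7 to 16.04), and IgG was at 1.12 times (1.07 to 1.16). In Gata2-leaning regions Ldb1 was at 2.36 times (2.22 to 2.50) and IgG at 1.57 times (1.43 to 1.71). In regions high in both these were 8.49 times (8.39 to 8.59) and 2.20 times (2.15 to 2.26). With regions rich in IgG left out, Ldb1 in Gata2-leaning regions was still at 2.30 times (2.16 to 2.44) its flanks, and IgG reached 1.31 times (1.19 to 1.45). A small Ldb1 peak was therefore present at Gata2-leaning sites. The weaker factor of each class was above its flanks as well. Gata2 was at 3.39 times its flanks in Tal1-leaning regions (3.34 to 3.44) and Tal1 at 2.23 times in Gata2-leaning regions (2.13 to 2.34). Both values were lowered by the choice of bins. They were also raised by the joint summit, which the tags of the weaker factor helped to place, so they do not show a separate peak of that factor. The flanks were themselves raised, at 1.62 to 2.19 times the genome mean for Gata2 and Tal1 in the 3 classes.

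**Figure D5:**
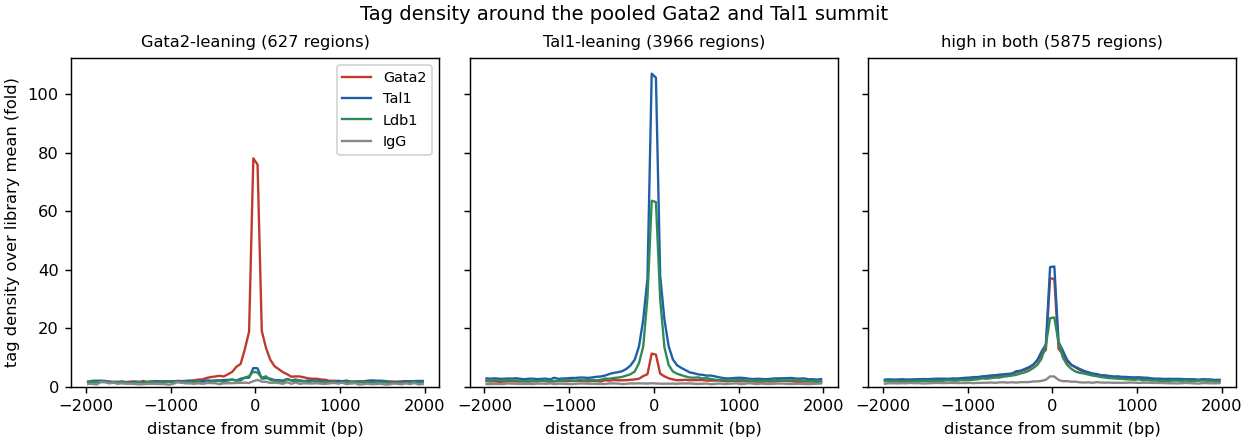
Tag density over the library mean (y axis, fold) in steps of 50 bp within 2 kb of the joint Gata2 and Tal1 summit (x axis, bp) in the 627 Gata2-leaning, 3966 Tal1-leaning and 5875 regions high in both. Lines are the 4 libraries, 1 each. Ldb1 forms a tall peak where Tal1 leads and where both are high, and only a low one where Gata2 leads.

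Where both were high, their summits lay close together. In 5041 regions high in both with few IgG tags, summits placed with 50% of the tags of each library were a median of 70 bp apart, and 60.6% were within 100 bp. Between subsets of the same library the median distance was 59 bp for Gata2 and 54 bp for Tal1, so most of the distance is also found within a library. In the 210 of these regions with 20 or more Ldb1 tags per bin the median was 31 bp between the factors, 32 bp between Gata2 subsets and 22 bp between Tal1 subsets. Summits were sought within 400 bp of the joint summit, which limits the distance.

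Strength changed the classes differently. In the strongest 25% of Tal1-leaning bins with under 4 IgG tags, by Tal1, the median was 64 Tal1, 8 Gata2 and 28 Ldb1 tags, and 92.7% had at least 10 Ldb1 tags, against 18.5% in the weakest 25%. In the strongest 25% of Gata2-leaning bins, by Gata2, the median was 40 Gata2, 5 Tal1 and 3 Ldb1 tags, and 5.77% had at least 10 Ldb1 tags, against 0.641% in the weakest. Strong Gata2-leaning bins thus had fewer Ldb1 tags than weak Tal1-leaning bins, whose median was 5. Of the 6561 bins high in both with under 4 IgG tags, 390 (5.94%) had 0 or 1 Ldb1 tag. These had medians of 13 Gata2 and 12 Tal1 tags and IgG at 1.33-fold, like the 4197 with 2 to 9 Ldb1 tags (13, 13 and 1.36-fold).

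On scales longer than a binding site the ratio stayed near 1. By chromosome it ran from 0.972 on chromosome 19 to 1.03 on chromosome 14. Among 2376 blocks of 1 Mb with at least 1000 tags, the log2 ratio of Gata2 to Tal1 had a 5% to 95% range of -0.21 to 0.17 and an SD of 0.12, against 0.043 from counting error. Outside the bins with 20 or more tags the SD was 0.081. Blocks in the highest 25% of Ldb1 density had a median log2 ratio of -0.098 and those in the lowest 0.080, and the ratio correlated with log2 Ldb1 density at r of -0.50 and with IgG density at 0.46 across the blocks. For the ratio outside bins with 20 or more tags, r with Ldb1 density was -0.26. The block with most Gata2, 1.53 times Tal1 (1.47 to 1.59), was chr17:39000001-40000000, where Ldb1 and IgG were also 2.57-fold and 1.48-fold over their means. Most of its 6045 Gata2 tags lay in 12 bins with enough tags, 10 of them high in both. Outside those bins it had 1331 Gata2 and 1257 Tal1 tags. The block with most Tal1 was chr16:98000001-99000000, with a ratio of Gata2 to Tal1 of 0.666 (0.603 to 0.735) and 588 Gata2 and 758 Tal1 tags outside such bins. The Tal1-leaning share of bins with enough tags was between 20.2% (chromosome 9) and 27.7% (chromosome 6), and the Gata2-leaning share between 2.11% (chromosome 19) and 4.57% (chromosome 16).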

How the data were processed

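The authors deposited unnormalized lists of aligned tags. Per the submitters' processing notes they are in mm8. The aligner, its version and filters were not given there. Tal1 tags are 36 bp long and those of Gata2, Ldb1 and IgG 25 bp, so places differ in mappability between the libraries. Repeated positions were 18.4% of Tal1, 14.1% of Gata2, 33.0% of Ldb1 and 30.1% of IgG tags on chromosomes 1 to 19, and were counted once. Tags were placed at their 5′ end in bins of 500 bp from position 0, and for summits and profiles moved 55 bp towards the fragment centre. Means were taken over bins in 10 kb blocks with a tag of any library. Bins were called by the size of the ratio alone, with a pseudocount of 1 tag. The calling step was tested on simulated counts. Bins of a class with at most 1 bin between them were joined into regions. The named regions are, in each class, the 6 with the largest difference of tags (the largest smaller count for those high in both) whose scaled IgG was under 25% of the leading library, and the largest with more. Chromosome 18 was not named. The members and rules were chosen with earlier results of these data known. Alternatives covered thinning, repeats, mismatches, bins, thresholds, scaling, IgG, strands and long runs. For mappability only 10 kb blocks with few IgG tags were left out. The difference between tags of 36 and 25 bp in single bins was not tested by this. Counts were made with Python 3.11.15, NumPy 2.4.6 and SciPy 1.17.1.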

Additional observations from a re-analysis of the deposited data

Results flagged for a closer look

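Chromosome X was outside the comparison and was counted in the same way. It held 196 bins with at least 20 Gata2 and Tal1 tags together. At least 10 tags were found in 300 bins for Tal1, 180 for Gata2 and 27 for IgG. The IgG library was smaller, with 3401045 tags on chromosomes 1 to 19 against 5785973 for each factor, so the cut of 10 tags was stricter for it. Of the 196 bins, 50 leaned to Tal1 (25.5%), 5 to Gata2 (2.55%) and 54 were high in both (27.6%). Mean Ldb1 was 12.7 tags in the Tal1-leaning bins, 9.87 in those high in both and 1.60 in those leaning to Gata2.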

How the results depend on the processing

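Under each of the 21 other settings more bins leaned to Tal1 than to Gata2, and Tal1-leaning bins had more Ldb1. The counts moved with depth and thresholds. Thinning to the IgG tag number gave 196 Gata2-leaning, 2490 Tal1-leaning and 1776 bins high in both. Bins of 250 bp gave 423 Gata2-leaning bins and 2848 high in both, and bins of 1000 bp gave 14692 high in both. A minimum of 40 tags gave 128 Gata2-leaning, 1913 Tal1-leaning and 1497 bins high in both, and a minimum of 15 tags gave 1182 Gata2-leaning bins. A fold of 8 gave 191 Gata2-leaning and 1637 Tal1-leaning bins, and a fold of 3 gave 1017 Gata2-leaning. With repeated tags kept, 1141 leaned to Gata2. The Ldb1 ratio of Tal1-leaning to Gata2-leaning bins was 7.68 with another thinning seed, 5.34 with repeats, 7.62 and 6.26 with bins of 250 and 1000 bp, 6.62 and 7.48 with minima of 15 and 40 tags, 5.41 and 10.03 with folds of 3 and 8, 6.61 with a pseudocount of 0.5 and 7.42 when scaled by tags outside blocks with enough tags. Those tags had a Gata2 to Tal1 ratio of 1.05. The causes were not tested. An exact binomial test at an adjusted 0.01 removed no bin. The minimum of 20 tags and 4-fold already ask for a large difference, so this adds little. The adjustment also depends on how many bins differ. In bins chosen on 50% of the tags with a minimum of 10 tags, the pooled ratios in the other tags were 3.96 for Gata2-leaning and 6.20 for Tal1-leaning bins. Of 338 values of named regions under alternatives, 321 kept their class, 13 of leaning regions fell short of the threshold in the same direction, and 4 of regions high in both left the limits of 0.5 to 2 (0.463 and 0.478 with repeated tags, 2.41 and 2.30 with tags without a mismatch). Part of this was fixed in advance. A minimum of 15 tags and a fold of 3 are looser limits on the same counts and could move no named region. Neither fold could move a region high in both. No paired analysis was possible because each antibody had 1 library.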

Other observations

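Tal1-leaning regions lay nearer to one another than Gata2-leaning regions did to theirs, in lists of different length. Of the 3966 Tal1-leaning regions 21.6% had another within 10 kb (median distance to the nearest 44.5 kb), against 1.91% of the 627 Gata2-leaning regions (774 kb). Regions high in both were within 10 kb of 24.6% of Tal1-leaning and 19.5% of Gata2-leaning regions. Repeated positions made up 31.8% of Tal1 tags in Tal1-leaning bins and 22.2% of Gata2 tags in Gata2-leaning bins, beside 33.6% and 24.5% over all bins with enough tags. In bins high in both the shares were 42.7% for Tal1, 30.8% for Gata2 and 68.0% for IgG, whose share over all bins with enough tags was 58.0%.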
